A study of Mus musculus with 23 samples.

Results

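Members of the Wnt pathway were followed through Notch1 gain and loss of function in mouse myogenic progenitors: the R-spondins Rspo1 and Rspo3, their receptors Lgr4 and Lgr5, the secreted antagonists Sfrp1 and Sfrp2, the readout genes Axin2 and Lef1, and Prickle2. They are 9 of the 21264 genes in the deposited expression table, matched by gene symbol. Rspo1, Lgr5 and Sfrp2 were chosen by their measured expression, since it differs strongly between groups of these samples, so their differences are described below without a test. The other 6 were tested, with the reservation that the set was put together with results of these data known.

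The study sequenced RNA from 23 libraries of iPax3 cells, mouse embryonic stem cells with inducible Pax3 that yield myogenic progenitors. In culture, 4 control libraries were labelled WT and 3 were labelled N1OE, which overexpress NICD1, the intracellular part of the Notch1 receptor. Satellite cells that derive from the donor, which are stem cells of muscle, were re-isolated as 9 control (WT), 4 N1OE (NICD1 overexpression) and 3 N1KO samples, the last with Notch1 knocked out. All groups carry the iPax3 background. The labels do not give the promoter that drives NICD1, the number of clones, the recipient strain or age, or whether animals were pooled. Nor do they say whether the replicates of a group came from different cultures or animals. The p-values then measure no more than the spread among these libraries, and that spread may be technical.

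Depth was 11637817 to 29154176 reads in the listed genes per library. Levels are given as CPM, read counts scaled to the library's total, and 3 reads stood for 0.103 to 0.258 CPM. Cultured and re-isolated libraries were made with different kits, so setting and kit cannot be told apart. The column headers carry a suffix, GoF, that the labels do not explain, on 5 of the 9 re-isolated controls (replicates 1, 4, 7, 8 and 9, here marked) and not on the other 4 (replicates 2, 3, 5 and 6, here unmarked). The sample description of re-isolated control replicate 7 lacks the suffix. In culture the suffix is on all control headers and, among N1OE, on replicate 1 alone. Whatever it stands for can thus hardly be told apart from NICD1 in the cultured comparison. The marked controls resemble re-isolated N1OE in how many genes had 1 read for each gene that had 2 (4.17 to 5.91 and 4.18 to 6.82), and the unmarked controls resemble N1KO (1.08 to 1.502 and 1.25 to 1.40). Some results are therefore given against each set. Where no set is named, a re-isolated result is against all 9 controls together, which mixes both sets. Notch1 itself lay at 297 to 370 CPM in cultured N1OE against 61.3 to 105 in cultured controls. After re-isolation Notch1 was 98.1 to 257 CPM in N1OE, 15.6 to 52.6 in N1KO, 136 to 174 in unmarked and 14.9 to 88.9 in marked controls, so the N1KO range overlaps the marked controls. Pax7, the defining satellite cell gene, was 11.5 to 154 CPM in re-isolated libraries and at most 0.891 CPM in culture.

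Wnt proteins bind Frizzled receptors with Lrp5 or Lrp6, which stops the Axin-Apc-Gsk3 complex from marking beta-catenin for destruction. Beta-catenin then acts with Tcf and Lef factors on genes such as Axin2, itself a brake on the pathway. R-spondins amplify this signal: bound to Lgr4, Lgr5 or Lgr6, they remove the ubiquitin ligases Rnf43 and Znrf3, which otherwise clear Frizzled from the cell surface. Sfrp proteins carry a Frizzled-like domain and bind Wnts outside the cell. Prickle proteins belong to planar cell polarity, a Wnt branch that does not use beta-catenin. In muscle, Wnt and R-spondin signals are known to act on satellite cells and their descendants, and Notch signalling is known to keep satellite cells quiescent.

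Promoter sequences of 6 of the 9 genes were found in RefSeq (GRCm38.p6), as 12 windows of 300 bases around annotated starts. No window was matched for Rspo3, Lgr5 or Sfrp1. The following stretches are shown because Rspo1 and Sfrp2 have the largest fitted differences between re-isolated N1OE and controls among the members, and because Lef1 and Prickle2 are members with matches to the motifs searched. Capitals mark the matches: TGGGAA, the core bound by Rbpj, the DNA-binding partner of NICD, or a site of Tcf and Lef factors. That site was searched as CTTTGAA, its variant CTTTGAT, the form CTTTGTA and the form CTTTGTT. The Rspo1 and Sfrp2 stretches are the 250 bases before the start at chr4:124986180-124986429 and chr3:83766071-83766320, plus strand. The Lef1 stretch lies after a start, at chr3:131110317-131110346, plus strand, and that of Prickle2 before a start, at chr6:92567490-92567540, minus strand.
Rspo1: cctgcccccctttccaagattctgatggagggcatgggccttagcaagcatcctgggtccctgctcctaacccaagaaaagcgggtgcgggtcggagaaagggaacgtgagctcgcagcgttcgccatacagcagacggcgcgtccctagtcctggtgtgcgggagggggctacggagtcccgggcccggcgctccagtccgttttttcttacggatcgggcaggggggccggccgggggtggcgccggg
Sfrp2: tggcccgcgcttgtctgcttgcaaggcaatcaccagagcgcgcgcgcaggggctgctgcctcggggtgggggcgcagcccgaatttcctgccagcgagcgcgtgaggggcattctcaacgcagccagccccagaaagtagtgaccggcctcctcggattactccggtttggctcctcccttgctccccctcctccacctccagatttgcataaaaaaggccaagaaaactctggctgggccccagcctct
Lef1: cgcggcgaggagaagcggTGGGAAggcgca
Prickle2: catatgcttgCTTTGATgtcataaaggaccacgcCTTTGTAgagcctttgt
Neither motif was found on either strand in the whole 300-base windows of Rspo1 and Sfrp2. Of the 12 windows, 4 held the Rbpj core (3 of Lef1, 2 of which overlap and share the match, and 1 of Prickle2) and 2 held a Tcf/Lef site. Among all 32851 windows of the same length, 25.6% held the Rbpj core and 16.9% a Tcf/Lef site, so the members' windows hold these short motifs about as often as windows in general. A match is a run of letters and no evidence of binding.

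Rspo1, which encodes an R-spondin ligand (ENSMUSG00000028871, GRCm38 chr4:124986430-125009099, plus strand), was highest in re-isolated N1OE. In the 4 re-isolated N1OE libraries it lay at 107, 72.4, 76.3 and 56.8 CPM. In the 5 marked controls it was 0, 0, 0, 0.0606 and 0.0524 CPM, and in the 4 unmarked controls 2.60, 12.9, 5.12 and 2.05 CPM. Every N1OE library was above every control, and the marked controls held almost no Rspo1. N1KO libraries had 2.36, 5.18 and 1.18 CPM, inside the span of the controls as a whole. In culture Rspo1 was 5.70, 2.88, 3.81 and 6.36 CPM in controls and 3.07, 3.46 and 6.70 CPM in N1OE. The cultured groups overlapped. Against all 9 controls the fitted log2 difference of re-isolated N1OE was 7.40 ± 1.29 (SE of limma), and against the unmarked controls alone it was 4.11 ± 0.53. With 3 controls at 0 reads the former depends on the constant in the deposited values, and was 5.15 on log2(CPM + 1) and 3.58 on log2(CPM + 5) values. Against the marked controls, 6501 reads stood against 2, a CPM ratio of 4323 with an exact 95% interval of 1196 to 35702 that covers counting error only. The summed CPM of 10 satellite cell markers was 3296 to 4680 in re-isolated N1OE, 3014 to 4181 in unmarked controls, 1494 to 2466 in marked controls and 1384 to 2759 in N1KO, with none at 0 in all libraries of a group. That of 7 endothelial markers was 41.4 to 87.7 in re-isolated N1OE, 5.40 to 40.5 in controls and 48.3 to 140 in N1KO, also with none at 0 throughout a group. The sum of 6 Schwann and glial markers was 192 to 385 in re-isolated N1OE, 48.5 to 254 in controls and 45.9 to 214 in N1KO, with 1 of the 6 at 0 in all unmarked controls. Sox10, the defining glial gene, was 42.7 to 155 CPM in N1OE, 2.36 to 41.1 CPM in controls and 9.16 to 23.5 CPM in N1KO. The part of these cells in the Rspo1 difference was not tested.

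The related ligand gene Rspo3 (ENSMUSG00000019880, chr10:29452416-29535867, minus strand) went the other way after re-isolation. Its levels in re-isolated N1OE were 0.549, 0.0516, 0 and 0.519 CPM. They were 3.66, 2.23, 0.213, 7.70 and 0.839 CPM in marked controls and 4.32, 4.97, 8.19 and 2.83 CPM in unmarked controls. N1OE was lower than every unmarked control and overlapped 1 marked control, replicate 7. Rspo3 fell by 3.68 ± 0.87 on the log2 scale against all controls (limma, adjusted p = 0.013). It fell by 4.496 ± 0.84 against the unmarked controls (adjusted p = 0.00104), while against the marked controls the difference of -3.03 ± 1.005 did not pass (adjusted p = 0.0548). The call against all controls was lost without N1OE replicate 2 (-3.35, adjusted p = 0.0596) and without N1OE replicate 3 (-3.03, adjusted p = 0.0695), the libraries with the fewest Rspo3 reads. It was also lost with limma-voom on the recovered reads (-3.72, adjusted p = 0.159) and on log2(CPM + 5) values (-0.69, adjusted p = 0.0546). N1KO libraries had 1.12, 1.93 and 5.80 CPM. In culture Rspo3 was 6.02, 1.64, 0.603 and 5.65 CPM in controls and 7.52, 1.51 and 0.914 CPM in N1OE, and the groups overlapped.

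Per length of exon, the balance of the 2 ligand genes differed between groups. Rspo1 made up 99.4% to 100% of their summed level in re-isolated N1OE, 0% to 9.06% in marked controls, 49.0% to 80.5% in unmarked controls and 24.5% to 81.1% in N1KO. In culture the share was 60.1% to 91.0% in controls and 39.4% to 92.1% in N1OE.

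**Figure D1:**
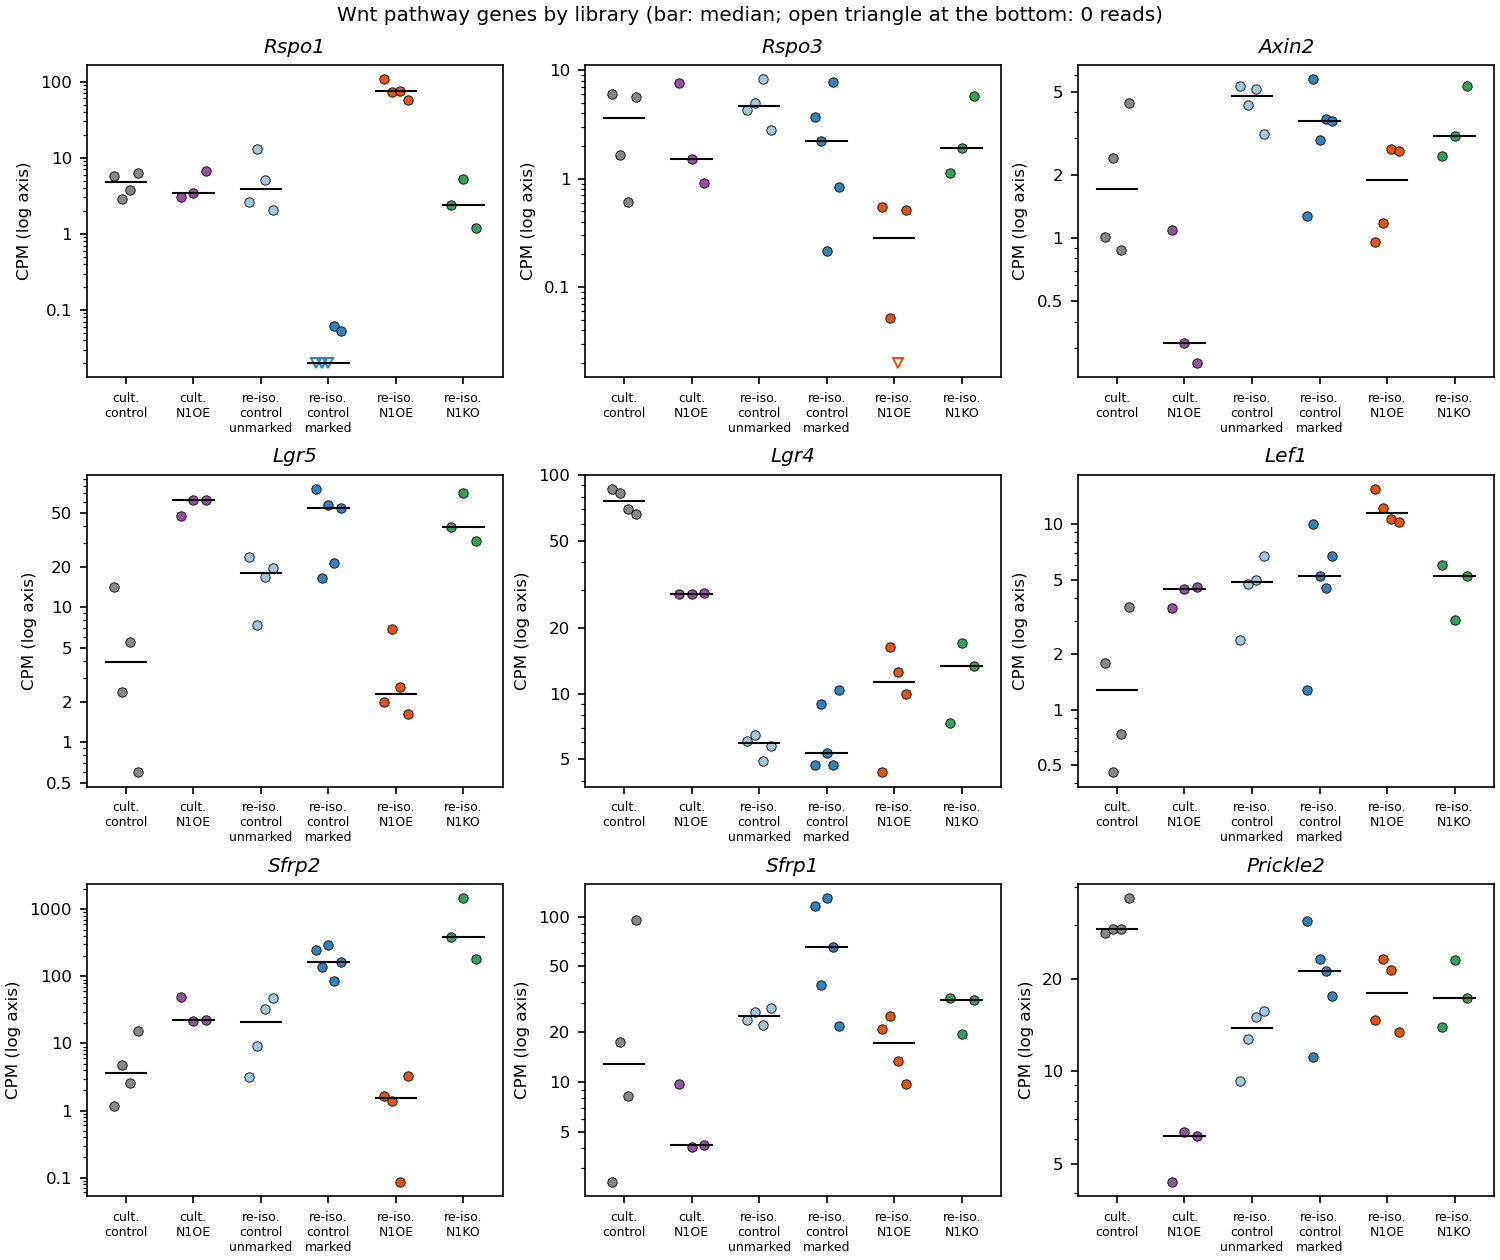
CPM of the 9 Wnt pathway genes in each of 23 libraries (points; log axis) in the 2 cultured groups, the 2 sets of re-isolated controls, and re-isolated N1OE and N1KO. Bars are medians, and open triangles and the Rspo1 bar at the foot of the panel stand for 0 reads. Rspo1 lies at 56.8 to 107 CPM in re-isolated N1OE and at most at 0.0606 CPM in marked controls.

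Lgr5, an R-spondin receptor and itself a Wnt readout gene in several stem cell types (ENSMUSG00000020140, chr10:115450311-115587780, minus strand), moved in opposite directions with NICD1 in the 2 settings. In culture it was 14.2, 2.36, 5.52 and 0.595 CPM in controls and 47.4, 62.1 and 62.6 CPM in N1OE. After re-isolation it was 1.99, 6.91, 2.58 and 1.61 CPM in N1OE. Re-isolated controls had 75.6, 16.5, 57.7, 21.3 and 54.5 CPM (marked) and 23.7, 7.43, 16.7 and 19.5 CPM (unmarked). All 3 cultured N1OE libraries were above all 4 cultured controls, and all 4 re-isolated N1OE libraries were below all 9 re-isolated controls. N1KO libraries had 39.3, 71.0 and 30.8 CPM, above every unmarked control and within the span of the marked ones. The log2 difference of N1OE from control was 4.09 ± 0.94 in culture and -3.19 ± 0.52 after re-isolation, -3.77 ± 0.49 against marked and -2.47 ± 0.48 against unmarked controls.

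Lgr4, the more widely expressed R-spondin receptor (ENSMUSG00000050199, chr2:109917647-110014257, plus strand), was lower with NICD1 in culture. It was 86.8, 83.0, 70.0 and 66.9 CPM in cultured controls and 28.7, 28.6 and 29.0 CPM in cultured N1OE. The groups did not overlap, and Lgr4 fell by 1.40 ± 0.12 on the log2 scale (limma, adjusted p = 0.00232). After re-isolation Lgr4 was much lower in every group. It was 4.36, 16.3, 12.5 and 10.01 CPM in N1OE and 7.31, 17.0 and 13.4 CPM in N1KO. Marked controls had 4.73 to 10.4 CPM and unmarked controls 4.92 to 6.47 CPM. All N1KO libraries were thus above all unmarked controls, and their range overlapped the marked ones. Neither re-isolated difference from all controls passed (N1OE 0.66 ± 0.38, adjusted p = 0.316; N1KO 0.94 ± 0.42, adjusted p = 0.383).

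The balance of the receptor pair differed between groups. Per exon length Lgr5 was 0.507% to 8.58% of the pair in cultured controls and 48.6% to 55.5% in cultured N1OE. After re-isolation it was 8.43% to 20.7% in N1OE, against 51.3% to 90.2% in marked controls, 39.7% to 69.0% in unmarked controls and 56.9% to 75.5% in N1KO. No library of re-isolated N1OE reached the share of any re-isolated control.

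Sfrp2, a secreted Wnt-binding protein gene (ENSMUSG00000027996, chr3:83766321-83774316, plus strand), was lowest in re-isolated N1OE at 1.65, 1.39, 0.0859 and 3.32 CPM. Marked controls had 245, 136, 292, 86.2 and 163 CPM, and unmarked controls 3.14, 9.18, 32.9 and 47.2 CPM. N1KO libraries had 383, 1458 and 183 CPM. The order was N1KO and marked controls, then unmarked controls, then N1OE, and the 2 highest groups overlapped. N1OE was below all marked controls, and 1 N1OE library (replicate 4) was above 1 unmarked control (replicate 2). The log2 difference of N1OE was -5.78 ± 1.01 from all controls, -7.34 ± 0.69 from marked and -3.82 ± 0.85 from unmarked controls. That of N1KO was 3.04 ± 1.12, 1.47 ± 0.75 and 4.996 ± 0.92 in the same order. In culture the direction with NICD1 was the opposite: 1.15, 4.71, 2.55 and 15.5 CPM in controls and 49.4, 21.9 and 22.1 CPM in N1OE, a log2 difference of 2.89 ± 0.82 with no overlap.

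Sfrp1, its close relative (ENSMUSG00000031548, chr8:23411502-23449632, plus strand), ranged less after re-isolation. It was 21.03, 25.2, 13.3 and 9.75 CPM in re-isolated N1OE and 32.0, 19.5 and 31.1 CPM in N1KO. Marked controls had 115, 38.8, 129, 65.7 and 22.0 CPM and unmarked controls 23.7, 26.3, 22.1 and 28.2 CPM. The marked set reached higher and spread more widely. Sfrp1 fell with NICD1 against the marked controls by 1.91 ± 0.45 (limma, adjusted p = 0.00759). The difference did not pass against the unmarked controls (-0.62 ± 0.36, adjusted p = 0.225) or all controls (-1.34 ± 0.46, adjusted p = 0.0859). In culture Sfrp1 was 2.48, 17.4, 8.26 and 95.04 CPM in controls and 9.75, 4.03 and 4.16 CPM in N1OE (adjusted p = 0.45), with 1 control far above the rest. Per exon length Sfrp2 made up 1.29% to 40.9% of the Sfrp pair in re-isolated N1OE, against 92.3% to 99.3% where Notch1 was knocked out. It made up 72.7% to 93.8% in marked and 21.2% to 77.3% in unmarked controls, and 24.8% to 48.5% in cultured controls against 91.1% to 91.7% in cultured N1OE.

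**Figure D2:**
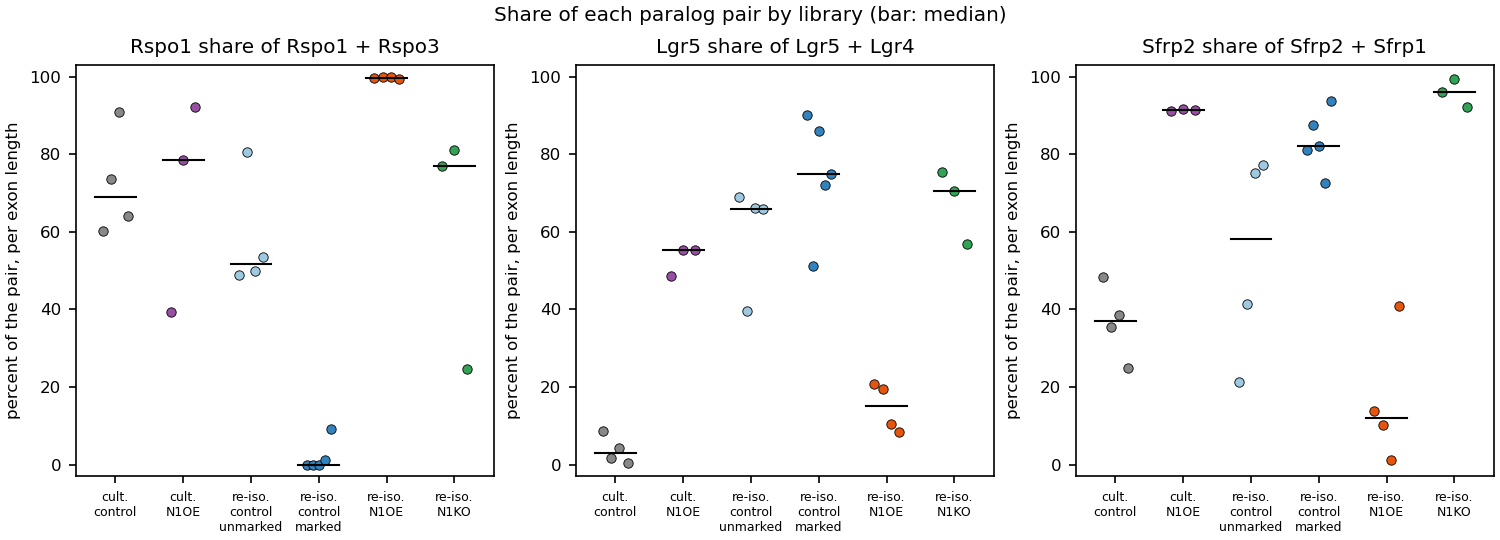
Share of each paralog pair's summed level per exon length, in percent, for Rspo1 with Rspo3, Lgr5 with Lgr4 and Sfrp2 with Sfrp1, in each library (points) with group medians (bars). Re-isolated N1OE lies at 99.4% to 100% for Rspo1, 8.43% to 20.7% for Lgr5 and 1.29% to 40.9% for Sfrp2.

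Markers of cells other than satellite cells also differed between the re-isolated groups. The summed CPM of 8 fibro-adipogenic markers (Pdgfra, Ly6a, Dcn, Lum, Pi16, Dpt, Mfap5 and Cd248), genes of a connective tissue progenitor of muscle, was 5488 to 15457 in N1KO, 1908 to 9877 in marked controls, 199 to 1243 in unmarked controls and 584 to 1317 in re-isolated N1OE. None of the 8 was at 0 in all libraries of a re-isolated group. Neuronal marker sums (6 genes) were 0.778 to 4.80 CPM in N1OE, below every control (6.87 to 70.3) and every N1KO library (16.1 to 32.0). In N1OE, in marked and in unmarked controls 1 of the 6 was at 0 throughout the group. Pericyte and smooth muscle sums (8 genes, none at 0 throughout) were 1016 to 1444 CPM in N1OE and 976 to 1323 in N1KO. They were 1771 to 3196 CPM in marked and 1043 to 1818 in unmarked controls. Macrophage marker sums (7 genes) were 156 to 534 CPM in N1KO, 69.0 to 575 in marked controls, 38.2 to 129 in unmarked controls and 22.8 to 121 in N1OE, with none at 0 throughout a group. The sums of 6 tenocyte and chondrocyte markers were 620 to 1599 CPM in N1KO and 250 to 841 in N1OE, and these ranges overlapped. In marked controls they were 293 to 577 CPM and in unmarked controls 854 to 1139. Tnmd, a tenocyte gene of that list, was 229 to 1122 CPM in N1KO and at most 0.519 CPM in N1OE, unlike the list as a whole. The N1OE sums of 250 to 841 CPM thus came almost wholly from the other genes of the list. The fibro-adipogenic sums were highest in the groups with the most Sfrp2, and the part of these cell types in the Sfrp2 and Lgr5 differences was not tested. The sums of re-isolated N1OE overlapped those of the unmarked controls through 1 control, replicate 6, and lay above the other unmarked controls (199 to 416 CPM). Ly6a (1.19 to 6.87 CPM in N1OE, 20.7 to 169 CPM in controls) and Cd248 (8.51 to 22.2 and 24.0 to 74.4 CPM) were below every control. The other genes of the list overlapped the controls, among them Dpt (402 to 929 CPM in N1OE, 77.4 to 529 CPM in controls). The median of Sfrp2 was 1.52 CPM in N1OE and 21.03 CPM in unmarked controls. Lgr5 was lower in every N1OE library than in every control. In culture the fibro-adipogenic sum was 43.1 to 278 CPM in controls and 20.3 to 29.1 CPM in N1OE, with 2 markers at 0 in all 3 N1OE libraries. Sfrp2 and Lgr5 were higher in cultured N1OE, and the part of these cells was not tested there either. In bulk RNA, fewer cells of a type and less RNA per cell cannot be told apart.

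**Figure D3:**
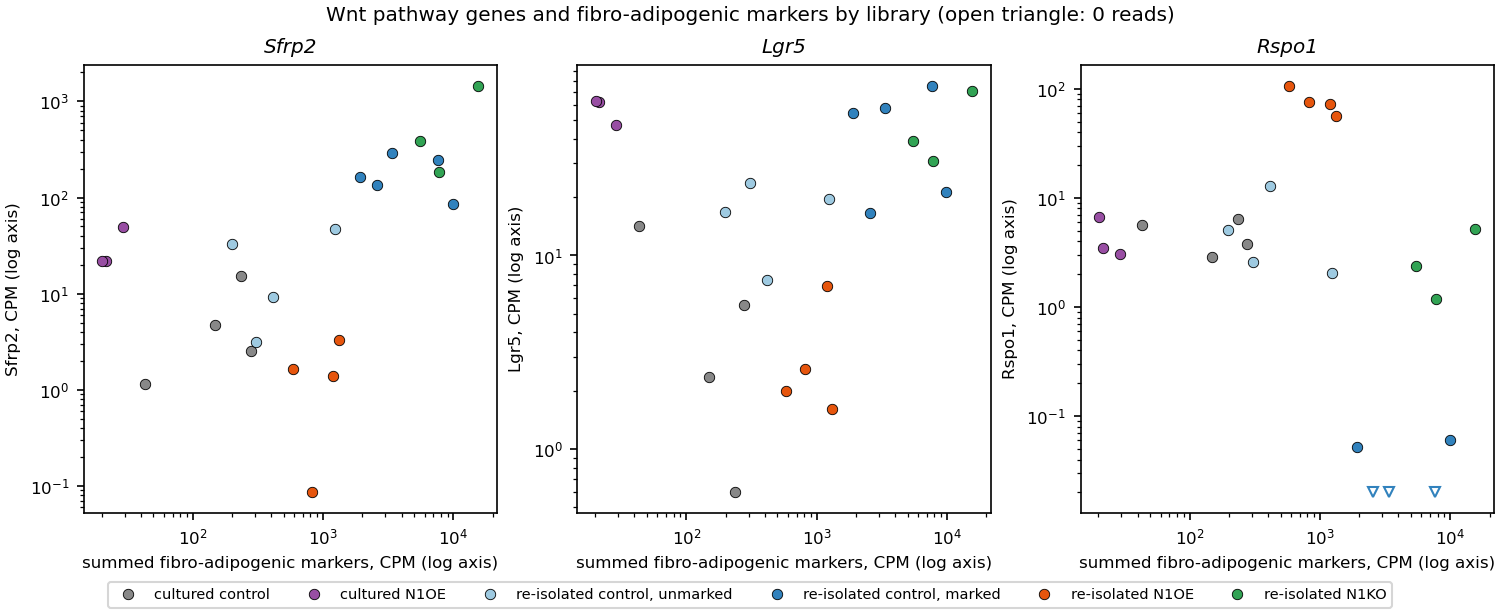
CPM of Sfrp2, Lgr5 and Rspo1 (log axes) against the summed CPM of 8 fibro-adipogenic markers (log axis) in each of 23 libraries, coloured by group, with open triangles for 0 reads. Re-isolated N1OE libraries lie at 584 to 1317 CPM of markers, a range that holds 1 of the 9 re-isolated controls (unmarked replicate 6).

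Axin2, the negative feedback gene of the beta-catenin branch (ENSMUSG00000000142, chr11:108920349-108950783, plus strand), was low everywhere and did not pass in any comparison. Re-isolated N1OE had 0.960, 1.19, 2.66 and 2.59 CPM. Marked controls had 1.28, 5.72, 2.93, 3.70 and 3.62 CPM, and unmarked controls 5.30, 4.34, 5.17 and 3.13 CPM. All N1OE libraries were below all unmarked controls, with a difference from all controls of -1.08 ± 0.47 on the log2 scale (limma, adjusted p = 0.168). In culture Axin2 was 1.01, 2.42, 0.882 and 4.40 CPM in controls and 1.09, 0.315 and 0.254 CPM in N1OE (-1.84 ± 0.72, adjusted p = 0.13).

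Lef1, a transcription factor that carries beta-catenin to its target genes (ENSMUSG00000027985, chr3:131110471-131224356, plus strand), was higher with NICD1 in both settings by its median, where Axin2 was lower. It was 15.4, 12.1, 10.7 and 10.3 CPM in re-isolated N1OE, 1.28, 10.1, 5.22, 4.55 and 6.71 CPM in marked controls and 2.36, 4.76, 4.97 and 6.75 CPM in unmarked controls. Every N1OE library was above every control, by a narrow margin over marked replicate 4. The log2 difference was 1.39 ± 0.45 from all controls (limma, adjusted p = 0.0661). It passed against the unmarked controls (1.43 ± 0.44, adjusted p = 0.026) and not against the marked ones (1.36 ± 0.50, adjusted p = 0.0874). It also passed without control replicate 4 (1.54, adjusted p = 0.0385) and with limma-voom on the recovered reads (1.49, adjusted p = 0.0321). The same held for limma on log2(CPM + 1) (1.20, adjusted p = 0.0431) and log2(CPM + 5) values (0.782, adjusted p = 0.0218). In culture Lef1 was 1.79, 0.458, 0.743 and 3.57 CPM in controls and 3.51, 4.47 and 4.57 CPM in N1OE (1.71 ± 0.66, adjusted p = 0.126). Without control replicate 4 the cultured difference passed too (2.21, adjusted p = 0.0326).

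Prickle2, a cytoplasmic planar cell polarity protein gene (ENSMUSG00000030020, chr6:92370908-92706155, minus strand), fell with NICD1 in culture. It was 28.2, 29.1, 29.2 and 36.6 CPM in cultured controls and 4.36, 6.36 and 6.14 CPM in cultured N1OE. The fall was 2.45 ± 0.18 on the log2 scale (limma, adjusted p = 0.00231), and the groups did not overlap. After re-isolation its levels were 13.4 to 23.2 CPM in N1OE, 13.9 to 23.1 CPM in N1KO and 9.33 to 30.9 CPM in controls, and the 3 groups overlapped (adjusted p = 0.874 for N1OE against all controls).

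All 9 genes passed the filter of 1 CPM in 3 libraries in each of these comparisons. In culture 2 of the 6 tested members passed the threshold with NICD1, Prickle2 and Lgr4, against 10.8% of all 12314 genes tested, and 4 of the 9 did not overlap between groups (Lgr4, Prickle2 and the chosen Lgr5 and Sfrp2), as did 34.8% of all genes. In re-isolated N1OE against all controls 1 of 6 passed, Rspo3, where 7.06% of 14155 genes passed. The groups did not overlap for Lef1 and the chosen Rspo1 and Lgr5, as for 4.8% of all genes. Of the 6, Sfrp1 alone passed against the marked controls (11.7% of all genes) and Rspo3 and Lef1 against the unmarked ones (19.5% of all genes).

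**Figure D4:**
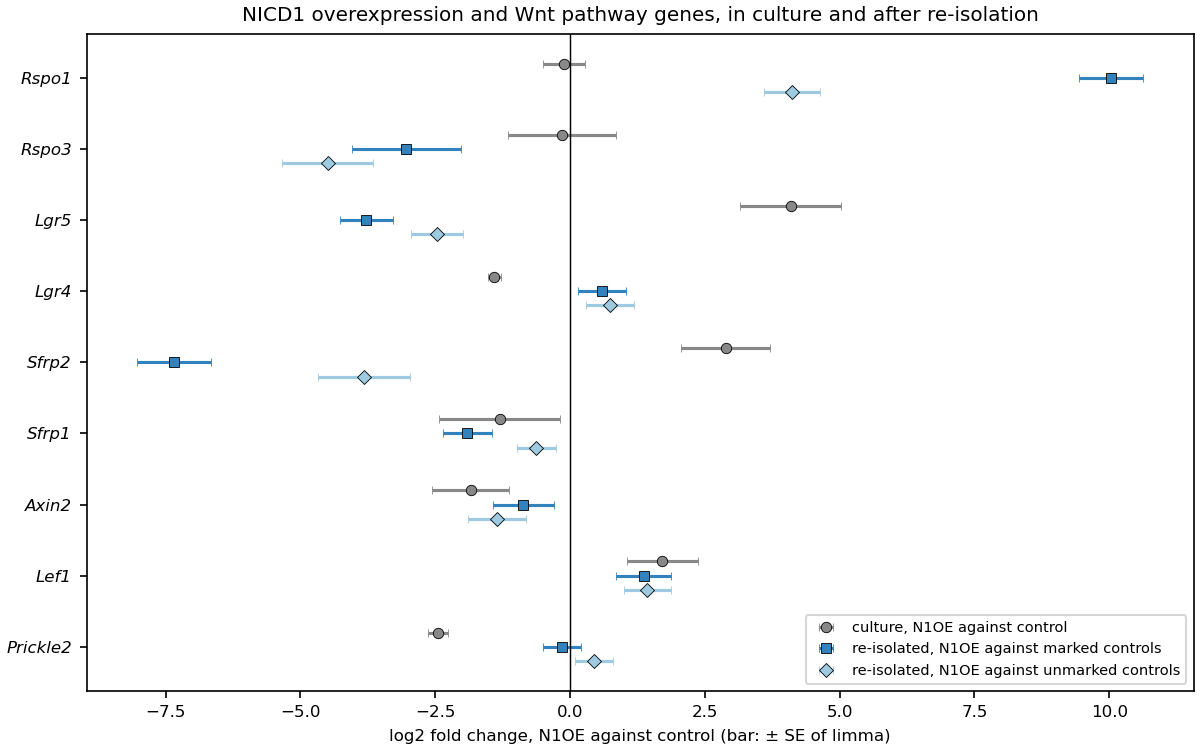
Log2 fold change of N1OE against control (points) with the standard error of limma (bars) for the 9 genes, in culture and after re-isolation against marked and unmarked controls. Lgr5 and Sfrp2 lie right of 0 in culture and left of 0 after re-isolation, and the Rspo1 value against marked controls rests on 2 control reads and depends on the small constant in the deposited values.

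In N1KO none of the 6 tested members differed from all controls by limma (adjusted p = 0.383 to 0.994), 1 had an unadjusted p under 0.05 (Lgr4), and limma-voom called none, where 0.657% of all genes passed. None of the 9 had groups that did not overlap (3.81% of all genes). Rspo1 in N1KO was 2.47 ± 1.43 log2 units above all controls and differed by -0.82 ± 0.57 from the unmarked controls, so its direction depends on the set of controls. Lgr5 was 0.78 ± 0.58 above all controls, 0.20 ± 0.53 above the marked and 1.51 ± 0.52 above the unmarked ones. Between N1OE and N1KO none of the 6 passed by limma or limma-voom (7.35% of all genes passed by limma). At an unadjusted p under 0.05 there were 2, Rspo3 (-3.50 ± 1.10, adjusted p = 0.0586) and Lef1 (1.37 ± 0.57, adjusted p = 0.152). Rspo3 passed without N1OE replicate 1 (adjusted p = 0.047). The difference of the chosen genes was 4.93 ± 1.64 for Rspo1, -3.98 ± 0.66 for Lgr5 and -8.81 ± 1.29 for Sfrp2. Rspo1, Rspo3, Lgr5, Sfrp2 and Lef1 did not overlap between these groups, as did 23.3% of all genes. N1OE and N1KO libraries also differ in the share of genes with 1 read, which cannot be told apart from genotype here.

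Marked and unmarked controls carry the same genotype label, yet differed in 27.6% of all 13230 genes tested. Among the members Rspo1 was lower in the marked set, with 2 reads against 496 in the unmarked set (ratio of unmarked to marked CPM 326, exact 95% interval 89.7 to 2697). Sfrp2 was higher by 3.53 ± 0.67 and Lgr5 by 1.31 ± 0.48 on the log2 scale. Of the 6 tested members none passed by limma or limma-voom, and 1 had an unadjusted p under 0.05, Sfrp1 (1.28 ± 0.45, adjusted p = 0.0513). Sfrp1 passed without replicate 4 (1.45, adjusted p = 0.0345) and without replicate 9 (1.65, adjusted p = 0.00639). It also passed with limma on log2(CPM + 1) (adjusted p = 0.0475) and log2(CPM + 5) values (0.0488), and with a filter of 5 CPM in 3 libraries (0.0455). Fibro-adipogenic markers passed in the marked set for 2 of 8 genes, both higher, and satellite cell markers for 5 of 10, all lower. The part of these cell types, and of the unequal number of genes with 1 read, in the members' levels was not tested.

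The size of the NICD1 effect differed between settings for 2 of the 6 tested members, against 3.27% of all 14509 genes. Prickle2 had an effect 2.57 ± 0.46 log2 units higher after re-isolation than in culture (limma interaction, adjusted p = 0.00158), and Lgr4 one 2.06 ± 0.50 higher (adjusted p = 0.0195). For Lgr4 the call was lost without any one of cultured N1OE replicates 1, 2 and 3 (adjusted p = 0.0519, 0.0601 and 0.0608) and without re-isolated N1OE replicate 2 (0.0508). Rspo3 did not pass (-3.54 ± 1.40, adjusted p = 0.2) except with the unmarked controls alone (-4.35 ± 1.28, adjusted p = 0.0326), where 10.8% of all genes passed. The untested differences of effect were 7.51 ± 1.89 for Rspo1 (3.62 on log2(CPM + 5) values), -7.28 ± 0.99 for Lgr5 and -8.66 ± 1.58 for Sfrp2. Setting and library kit change together in all of these.

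The wider pathway was read from 9 lists of 110 Wnt genes, counted without Rspo1, Lgr5 and Sfrp2. In culture 3 of 77 tested genes rose with NICD1 and 9 fell, where 10.8% of all genes passed, with a median log2 difference of -0.09 beside 0.07 over all genes. Frizzled receptor genes moved both ways: Fzd4 rose by 3.51 ± 0.52 (limma, adjusted p = 0.0112), and Fzd1 fell by 2.55 ± 0.33 (adjusted p = 0.00782). Znrf3, the ligase that R-spondins oppose, rose by 0.81 ± 0.12 (adjusted p = 0.011), and Lgr6, the third R-spondin receptor, fell by 4.57 ± 0.76 (adjusted p = 0.0154). Of the ligands, Wnt5a fell by 1.82 ± 0.31 (adjusted p = 0.0166). Wnt2 fell as well (adjusted p = 0.0185), with 2 reads in N1OE against 507 in controls, a ratio of 188 (exact 95% interval 51.7 to 1553). In planar cell polarity Vangl2, a core membrane protein gene, rose by 0.75 ± 0.13 (adjusted p = 0.0165), and Daam2, a Dishevelled-binding formin gene, fell by 2.23 ± 0.46 (adjusted p = 0.029). The other genes past the threshold were Sp5 and Shisa2, both lower and outside the rule for naming. Leaving out single N1OE libraries left 3 to 6 genes past the threshold, and leaving out control replicate 4 gave 20. The count over all genes moved the same way. It was 1325 with all libraries, fell without each N1OE library, to 158 without replicate 3, and rose to 1765 without control replicate 4. Lgr6 did not pass without N1OE replicate 3 (adjusted p = 0.0719) or with limma-voom (0.0602). Its log2 difference was -4.84 to -1.22 over the alternatives other than leaving out single libraries. Wnt2 and Daam2 did not pass with limma-voom (0.104 and 0.0812) or on log2(CPM + 5) values (0.142 and 0.0514), nor Wnt2 on log2(CPM + 1) values (0.0782). Vangl2, Wnt5a, Wnt2 and Daam2 did not pass without N1OE replicate 1 (adjusted p = 0.0639 to 0.0829). Without N1OE replicate 2 or 3 Znrf3, Fzd4, Vangl2, Wnt5a, Wnt2 and Daam2 did not pass (adjusted p = 0.062 to 0.131).

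After re-isolation, 4 of 13 tested Wnt ligand genes passed as lower in N1OE against all controls, where 7.06% of all genes passed in either direction. None passed as higher and 9 did not pass. The median over the 13 was -1.60 beside 0.06 over all genes. Wnt5b fell by 2.05 ± 0.41 (limma, adjusted p = 0.0039) and Wnt5a by 1.43 ± 0.34 (adjusted p = 0.0141), both known as ligands of pathways without beta-catenin. Wnt2 had no read in the 4 N1OE libraries against 459 in the controls, at least 65.3-fold lower with 3 reads set over the group (adjusted p = 0.00949). The Wnt2 call was lost against the unmarked controls (adjusted p = 0.0637), with limma-voom (0.0985), on log2(CPM + 1) (0.104) and on log2(CPM + 5) values (0.202). Wls, which carries Wnts to the cell surface, fell by 1.51 ± 0.33 (adjusted p = 0.00701). The fourth Wnt was Wnt6, outside the rule for naming. Wnt5a did not pass without N1OE replicate 4 (-1.18, adjusted p = 0.0623).

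Readout genes of beta-catenin past the threshold did not move in 1 direction in re-isolated N1OE. Of the 12 tested, only Nkd2, Nkd1 and Ccnd1 passed against all controls, and Axin2 and Lef1 did not. The median log2 difference over the 12 was -0.465. Nkd2, an inhibitor that binds Dishevelled, rose by 3.17 ± 0.43 (limma, adjusted p = 0.000112), while its relative Nkd1 fell by 3.001 ± 0.41 (adjusted p = 0.000116). Nkd2 was 100 to 236 CPM in N1OE and 7.39 to 44.3 CPM in controls. Nkd1 was 0.601 to 1.85 CPM in N1OE and 3.78 to 11.8 CPM in controls, and neither gene's groups overlapped. Ccnd1, the cyclin D1 gene, fell by 2.28 ± 0.44 (adjusted p = 0.00297), and Prickle1, of planar cell polarity, by 1.97 ± 0.31 (adjusted p = 0.000496). In all, 2 of 92 tested Wnt genes were higher and 11 lower against all controls, where 7.06% of all genes passed. Against the marked set 4 of 91 were higher and 17 lower (11.7% of all genes passed), and against the unmarked set 7 of 87 and 15 (19.5%). Besides Rspo3 and Wnt6, the remaining genes were Ror1 (higher), Dkk3 and Wif1 (lower), also outside the rule. Leaving out N1OE replicate 2, 3 or 4 left 8 genes, where 562, 593 and 724 of all genes passed in place of 1000.

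In N1KO 3 of 92 Wnt genes passed against all controls, all higher. They were Nkd2 (2.46 ± 0.47, limma, adjusted p = 0.0209), Wnt5b (2.02 ± 0.45, adjusted p = 0.0424) and Trabd2b, a protease gene that inactivates Wnts (4.97 ± 1.13, adjusted p = 0.0448). Nkd2 was thus above the controls with both gain and loss of Notch1, at 81.3 to 146 CPM in N1KO. All 3 calls were lost without N1KO replicate 1 or 2 (adjusted p = 0.0516 to 0.254). Wnt5b and Trabd2b also missed the threshold without N1KO replicate 3 (adjusted p = 0.068 and 0.0767) and without control replicate 2, 4 or 5 (adjusted p = 0.0566 to 0.0642). Wnt5b missed it without control replicate 6 or 7, and Trabd2b without control replicate 3 or 8 (adjusted p = 0.0511 to 0.0535). The log2 difference of Trabd2b was 2.3 to 5.08 over the alternatives other than leaving out single libraries. Against the marked set 6 Wnt genes passed as higher and 3 as lower (3.92% of all genes passed), and against the unmarked set 11 and 1 (7.29% of all genes).

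Between N1OE and N1KO 1 of 92 tested Wnt genes was higher in N1OE and 13 were lower, where 7.35% of all genes passed. On the log2 scale, N1OE differed from N1KO by -4.06 ± 0.52 for Wnt5b (limma, adjusted p = 9.67e-05), -7.74 ± 1.29 for Rspo2, another R-spondin gene (adjusted p = 0.0011; -2.35 on log2(CPM + 5) values), and -2.21 ± 0.43 for Wnt5a (adjusted p = 0.00345). Rspo2 was 10.9 to 37.5 CPM in N1KO and 0 to 0.259 CPM in N1OE. Secreted antagonist genes were also lower, Dkk3 with -5.87 ± 1.01 (adjusted p = 0.00139) and Sfrp4 with -4.02 ± 0.78 (adjusted p = 0.00317). Nkd1 differed by -3.30 ± 0.52 (adjusted p = 0.000637). Wnt2 was at least 73.8-fold lower (adjusted p = 0.00693), a call lost on log2(CPM + 1) (0.0593) and log2(CPM + 5) values (0.15). Tle4, a corepressor of Tcf and Lef factors, was the gene that was higher in N1OE (2.88 ± 0.58, adjusted p = 0.00428). Fibro-adipogenic markers were lower in N1OE for 4 of 8 genes in the same comparison, and their part in these differences was not tested. N1OE and N1KO libraries also differed in how many genes had 1 read for each gene that had 2 (4.18 to 6.82 and 1.25 to 1.40). That library difference and genotype cannot be told apart in this comparison. Without N1KO replicate 2 the count was 9 in place of 14, and that over all genes was 489 in place of 1040.

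**Figure D5:**
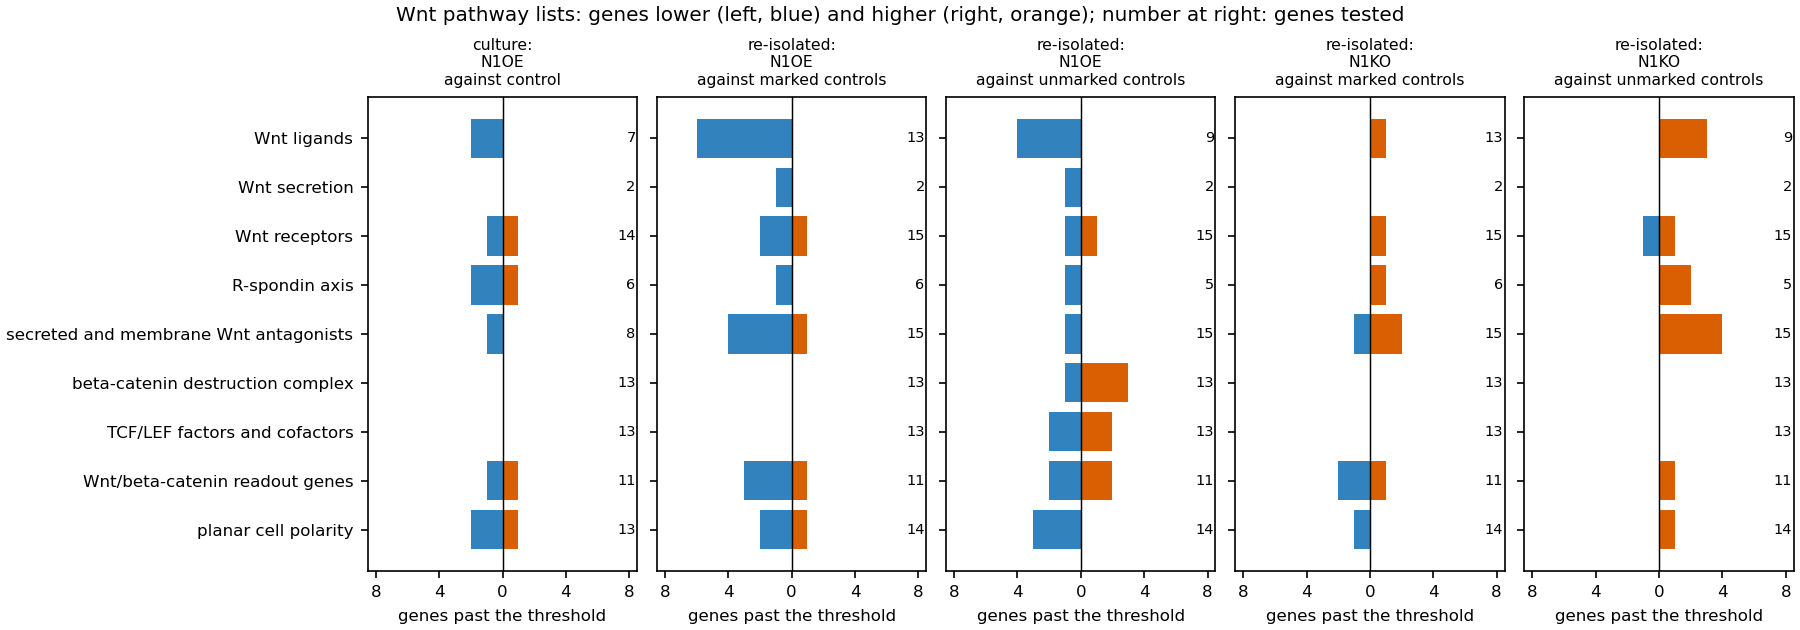
Number of genes past the threshold in each of 9 Wnt pathway lists (rows; Rspo1, Lgr5 and Sfrp2 left out), lower to the left and higher to the right, with the number tested at the right edge, in 5 comparisons (panels). The panels are culture, N1OE against marked and unmarked re-isolated controls, and N1KO against each of these sets. Wnt ligand genes past the threshold are lower in N1OE in culture (2 of 7, where 10.8% of all genes passed). Not drawn are N1OE against all re-isolated controls (4 of 13 lower, 7.06% of all genes passed) and against N1KO (5 of 13 lower, 7.35%).

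The marked and unmarked controls differed in 22 of 88 Wnt genes by limma, 11 higher and 11 lower in the marked set, where 27.6% of all genes passed. Dkk3 was higher by 3.16 ± 0.52 (adjusted p = 0.00152), Ccnd1 by 1.54 ± 0.26 (adjusted p = 0.00167) and Notum, a Wnt-inactivating enzyme gene, by 1.62 ± 0.41 (adjusted p = 0.0128). Draxin differed by -4.15 ± 0.90 (adjusted p = 0.00628), and by -4.68 to -0.655 over the alternatives other than leaving out single libraries. Pygo2 differed by -1.45 ± 0.30 (adjusted p = 0.00505) and Bcl9l, which with Pygo2 links beta-catenin to chromatin, by -1.14 ± 0.25 (adjusted p = 0.0066). Ctnnbip1 differed by -0.83 ± 0.18 (adjusted p = 0.00676), and Porcn, the enzyme gene that acylates Wnts, by -0.95 ± 0.23 (adjusted p = 0.0105). Leaving out replicate 2, 3 or 7 gave 12, 14 and 14 genes, where 2626, 2461 and 2434 of all genes passed in place of 3645.

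Genes with the most similar profile were looked for among 14161 genes over the 23 libraries, by the root mean square difference of centred log2 values. For Rspo1 they were Bfsp1 (1.29), Myo1a (1.65) and Rhbdl2 (1.67), beside a spread of Rspo1 itself of 3.26 (SD). For Lgr5 they were Stra6 (1.27), Ildr2 (1.32) and Cyp26c1 (1.38), beside 1.97. For Sfrp2 they were Podnl1 (1.66), Tmem26 (1.89) and Itga11 (1.91), beside 3.24. Bfsp1, for example, had a median of 16.7 CPM in re-isolated N1OE and 0.0524 CPM in marked controls, and Stra6 had 0.551 CPM in re-isolated N1OE and 12.6 CPM in cultured N1OE. The 23 libraries share the group structure, depth and kits, so this likeness is a description.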

How the data were processed

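RNA-seq of 23 libraries was used as the log2 CPM values that the authors deposited for 21264 genes (lowest value -4.19). The submitters' processing notes list Trimmomatic 0.33, FastQC, featureCounts, edgeR and mm10; the aligner and annotation are not given in the sources used here. Per the labels' protocols, cultured libraries were TruSeq stranded, and re-isolated ones were amplified low-input cDNA with Nextera XT. CPM was recovered by removing the smallest value from the antilog, and gave whole reads for 100% of values (tolerance 0.05 reads).

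Groups were compared with limma 3.58.1 in R 4.3.3 (moderated, with trend, two-sided) on the deposited log2 values of genes at 1 CPM or more in at least 3 libraries of the fit. P-values were adjusted by Benjamini-Hochberg over all genes tested, with a threshold of 0.05. The 3 re-isolated groups shared 1 fit. The code was tested on simulated data. Alternatives were other pseudocounts, filters, scaling, limma-voom on recovered reads, a replicate block, either control set, groups fitted alone and leaving out each library. Members and gene lists were chosen with earlier results of these data known. Named were all members, up to 8 further list genes past the threshold per comparison by smallest p, and the 3 genes most like each of Rspo1, Lgr5 and Sfrp2. Coordinates and exon lengths are from GENCODE M21 (GRCm38). Cultured N1OE replicates 2 and 3 differed less than other pairs (chi-square per degree of freedom 3.31, against 29.7 and 35.0), but beyond counting noise, and were counted as 2 samples. Figures were drawn with matplotlib 3.10.9 in Python 3.11.15.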

Additional observations from a re-analysis of the deposited data

Results flagged for a closer look

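Single libraries stood apart from their group in 2 of 45 member-group pairs examined, where chance gives about 1 in 20. Axin2 in re-isolated control replicate 1 was 1.28 CPM, below the other controls. Prickle2 in cultured control replicate 4 was 36.6 CPM, above the other cultured controls.

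The log2 effect of NICD1 differed between re-isolated and cultured cells, by the limma interaction, for Prickle2 (2.57) and Lgr4 (2.06) among the members. Among the wider Wnt genes it was higher after re-isolation for Nkd2 (6.54), Shisa2 (3.99), Daam2 (2.68), Tle4 (2.29) and Fzd1 (2.22), and lower for Fzd4 (-3.34) and Nkd1 (-2.91). The calls of Daam2 (adjusted p = 0.0499) and Tle4 (0.0497) were lost in 22 and 19 of 30 alternatives. With limma-voom Nkd2 (0.182), Shisa2 (0.0567) and Nkd1 (0.0534) did not pass, nor did Fzd1 with the replicate block (0.0914) or Lgr4 in 6 of 30 alternatives. Nkd2 had no read in cultured N1OE and 120 in cultured controls, at least 29.6-fold lower with 3 reads set over the group, so its fitted value depends on the constant in the deposited values. For Lgr5 the effect differed by -7.28, with every N1OE library above the controls in culture and below them after re-isolation, and this difference was not tested. Setting and library kit cannot be told apart in any of these.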

How the results depend on the processing

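Over 89 results and 1756 alternatives, 1 direction reversed: Rspo1 in N1KO was -0.82 against the unmarked controls. The count of Wnt list genes past the threshold was 12 in culture, 7 with limma-voom, 20 with the replicate block, 5 without the libraries described in another form (chosen after seeing the data), and 3 to 20 leaving out single libraries. For re-isolated N1OE it was 13, 21 with marked and 22 with unmarked controls, and 8 to 15 leaving out single libraries. For N1KO it was 3, 5 on log2(CPM + 1), 7 on log2(CPM + 5), 5 with limma-voom, 9 with marked and 12 with unmarked controls, and 0 to 5 leaving out single libraries; with the 2 groups alone limma gave 0 (19 at an unadjusted p under 0.05). For N1OE against N1KO it was 14, and 9 to 14 leaving out single libraries; for marked against unmarked controls 22, and 12 to 31. For the difference of effects it was 9, 5 with limma-voom, 5 with the replicate block, 16 with unmarked controls, 5 without the libraries described in another form, and 6 to 9 leaving out single libraries. The cause was not tested. Among all genes, culture calls were 1325, 957 with limma-voom and 1601 with the replicate block. They were 196 without the libraries described in another form, and 158 to 1765 leaving out single libraries. Calls in re-isolated N1OE were 1000, 1627 with marked and 2691 with unmarked controls, and 562 to 1090 leaving out single libraries. Among all genes, N1KO calls were 93, 240 on log2(CPM + 1), 321 on log2(CPM + 5), 179 with no filter, 285 with limma-voom, 61 with the replicate block, 35 with the 2 groups alone, 544 with marked and 1008 with unmarked controls. Same-numbered samples correlated at -0.15 to 0.28, so the labels' numbers were not taken as pairing; among the genes named, the replicate block ended the Wls call in re-isolated N1OE (-1.64, adjusted p = 0.057), the Wnt5b call in N1KO (1.93, 0.262) and the differences of effect of Lgr4 (2.07, 0.0735), Fzd1 (2.01, 0.0914), Tle4 (2.40, 0.111) and Daam2 (2.42, 0.166). Below 3 reads (0.103 to 0.258 CPM) differences were not detectable at this depth.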
